A study of Caenorhabditis elegans with 3 samples.

Results

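The genes described here encode subunits of the machinery that starts and processes messenger RNA in the nematode Caenorhabditis elegans, namely RNA polymerase II (rpb- genes), the Integrator complex (ints-), Mediator (mdt-) and the TFIID complex (taf-). They were chosen by symbol: every protein-coding gene of the WBcel235 annotation whose symbol starts with 1 of these 4 prefixes was taken, which gave 59 of 19985 protein-coding genes, 11 for polymerase II, 11 for Integrator, 20 for Mediator and 17 for TFIID. The choice of these complexes was made with earlier results of the same peak lists in view, so the peak counts below describe the genes and are not a test of them. The assay was ChIP-seq: whole hermaphrodites of the strain YL507, at the young adult stage, stably expressed DPL-1 from a transgene with GFP-FLAG at its C-terminus, and chromatin bound by the tagged protein was recovered with an antibody to GFP and sequenced. There were 3 biological replicates of this 1 group, and no untagged, input or otherwise treated sample was analysed here. Whole animals were used, so binding in the germ line, the intestine and other tissues cannot be told apart, and the depth of sequencing per replicate is unknown. A gene was counted as having a peak when a summit of the authors' optimal list lay within 500 bp of its annotated 5' end. That list holds 3295 peaks kept by the irreproducible discovery rate (IDR) procedure, which uses the ranks of peaks in the replicates to set how many are kept. They are the 3295 strongest peaks of the pooled replicates, a peak among them need not rank alike in every replicate, and each peak's signal is the authors' own measure of its strength.

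DPL-1 is the DP protein of the worm, the partner with which E2F transcription factors bind DNA, and with them it is part of the DREAM complex, best known for holding cell cycle genes in check. RNA polymerase II makes messenger RNA and many small nuclear RNAs. TFIID, built of the TATA-binding protein and its associated factors (TAFs), recognises the promoter, Mediator carries signals from bound regulators to the polymerase, and Integrator cuts nascent transcripts, above all those of small nuclear RNAs, and ends transcription close to promoters. In worms many genes are transcribed together in operons, in which a gene downstream of the first has no need of a promoter of its own.

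The sequences around 5 of the summits are shown, those of the strongest peak of each complex and of peaks with an E2F-like motif, leaving out 1 chromosome from which no sequence is printed. On that chromosome lie ints-4, ints-1 and taf-4, whose peaks were stronger than those of ints-9 and taf-11.3, and rpb-7, whose window also held an E2F-like match. Each runs 50 bp to either side of a summit, 5' to 3' on the strand of the gene, in the WBcel235 (ce11) assembly of RefSeq, and capitals mark matches to the motifs searched. The E2F-like motif was TTCCCGC or TTCGCGC or TTGCCGC or TTGGCGC, and the cell cycle homology region (CHR), to which LIN-54 of DREAM binds, was TTCGAA or TTTGAA, on either strand. The windows are chrII:14059911-14060011 on the plus strand for rpb-11, chrIV:9147111-9147211 on the minus strand for rpb-12, chrV:7575692-7575792 on the plus strand for ints-9, chrII:10301106-10301206 on the plus strand for mdt-22, and chrIII:10505331-10505431 on the minus strand for taf-11.3.
rpb-11: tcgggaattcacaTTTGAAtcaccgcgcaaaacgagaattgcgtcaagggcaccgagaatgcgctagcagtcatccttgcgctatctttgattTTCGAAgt
rpb-12: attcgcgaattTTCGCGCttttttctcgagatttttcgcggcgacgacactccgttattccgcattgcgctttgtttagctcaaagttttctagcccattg
ints-9: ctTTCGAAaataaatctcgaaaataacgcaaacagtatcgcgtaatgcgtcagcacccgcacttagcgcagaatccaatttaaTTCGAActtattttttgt
mdt-22: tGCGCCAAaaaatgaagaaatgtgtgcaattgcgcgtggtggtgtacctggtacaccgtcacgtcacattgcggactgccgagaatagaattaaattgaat
taf-11.3: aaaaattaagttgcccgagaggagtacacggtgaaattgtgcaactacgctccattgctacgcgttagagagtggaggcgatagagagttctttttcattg
The rpb-11 window held a CHR match on each side of the summit, as did that of ints-9. The rpb-12 window held an E2F-like match as TTCGCGC, which began 39 bp upstream of the summit, and the mdt-22 window held GCGCCAA, the reverse complement of TTGGCGC, at its upstream edge. In the taf-11.3 window neither motif was present. A match is a description of the letters and not a site, and the lack of a match says only that these letters are not in the window.

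Over the 25 genes with a peak, the E2F-like motif lay within 50 bp of 3 summits (12%), those of rpb-12, rpb-7 and mdt-22, against 17.9% of all 1833 IDR summits at protein-coding 5' ends. The same letters read backwards (CGCCCTT or CGCCGTT or CGCGCTT or CGCGGTT), searched as a control for base composition, were also near 3 of the 25 (12%), against 10.5% overall. The rpb-12 summit was in both counts, and its matches overlap in the letters TTCGCGCTT. The control was therefore not independent of the motif there. The CHR was near 9 (36.0%), 4 of them at Integrator genes, against 31.2% overall. The GC content of the windows had a median of 45.54% for these genes and for all IDR summits at 5' ends.

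Among the genes of these prefixes, DPL-1 peaks lay at most polymerase II and Integrator genes and at a minority of Mediator and TFIID genes. An IDR peak lay at the 5' end of 25 of the 59 genes (42.4%), where 11.8% of all protein-coding genes had one. The count was 8 of 11 (72.7%) for polymerase II and the same for Integrator, 5 of 17 (29.4%) for TFIID and 4 of 20 (20%) for Mediator. These 25 genes had 25 different peaks. When each replicate was read on its own through its 3295 strongest peaks, 24 of the 59 genes had a peak in replicate 1, 26 in replicate 2 and 20 in replicate 3, where the shares of all protein-coding genes were 9.94%, 11.7% and 10.3%. The mean was 39.6% ± 5.18 of the genes (SD, n = 3 replicates).

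By complex, the share in the single replicates was 63.6% ± 9.09 (SD, n = 3) for polymerase II, 57.6% ± 18.9 for Integrator, 31.4% ± 8.99 for TFIID and 23.3% ± 2.89 for Mediator. Polymerase II had 7, 8 and 6 genes with a peak in replicates 1, 2 and 3, and Mediator had 5, 4 and 5. Integrator had 8, 7 and 4, and TFIID 4, 7 and 5. In every replicate polymerase II and Integrator stood above Mediator in share. The 4 Integrator genes of replicate 3 (36.4%) were fewer in share than the 7 TFIID genes of replicate 2 (41.2%), so the replicate ranges of Integrator and TFIID overlapped, whereas those of polymerase II and TFIID did not. With 1 group and no control, no test between complexes was made.

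**Figure D1:**
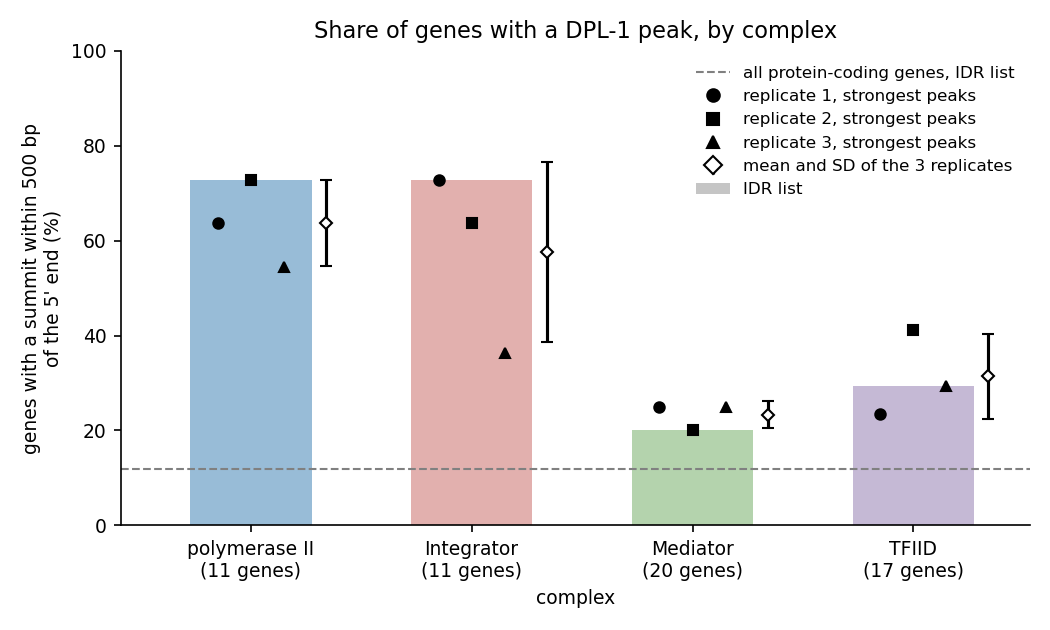
Share of the genes of each complex (%) with a DPL-1 summit within 500 bp of the 5' end. Bars give the IDR list, filled symbols the 3295 strongest peaks of each replicate, open diamonds the replicate mean with its SD (n = 3), and the dashed line the 11.8% of all protein-coding genes. Polymerase II and Integrator reached 72.7% in the IDR list, Mediator 20% and TFIID 29.4%, and the Integrator replicates spread from 36.4% to 72.7%.

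Of the 34 genes without an IDR peak, 20 had a weaker summit. Together with the 25, 45 of the 59 genes (76.3%) had some summit within 500 bp in the relaxed list of the pooled replicates, which holds 30000 peaks and background regions, where 33.0% of all protein-coding genes had one. This was so for 10 of 11 polymerase II genes, 10 of 11 Integrator genes, 14 of 20 Mediator genes and 11 of 17 TFIID genes. The complexes lay closer together by this measure, from 64.7% to 90.9%, than by the IDR list. The signals of the 25 IDR peaks ran from 48.64 to 710.0 with a median of 123.8, and the median over all protein-coding genes with an IDR peak was 101.6. The medians were 149.7 for polymerase II, 141.3 for Mediator, 124.7 for TFIID and 88.52 for Integrator. Integrator thus had as many peaks as polymerase II, with a lower median.

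**Figure D2:**
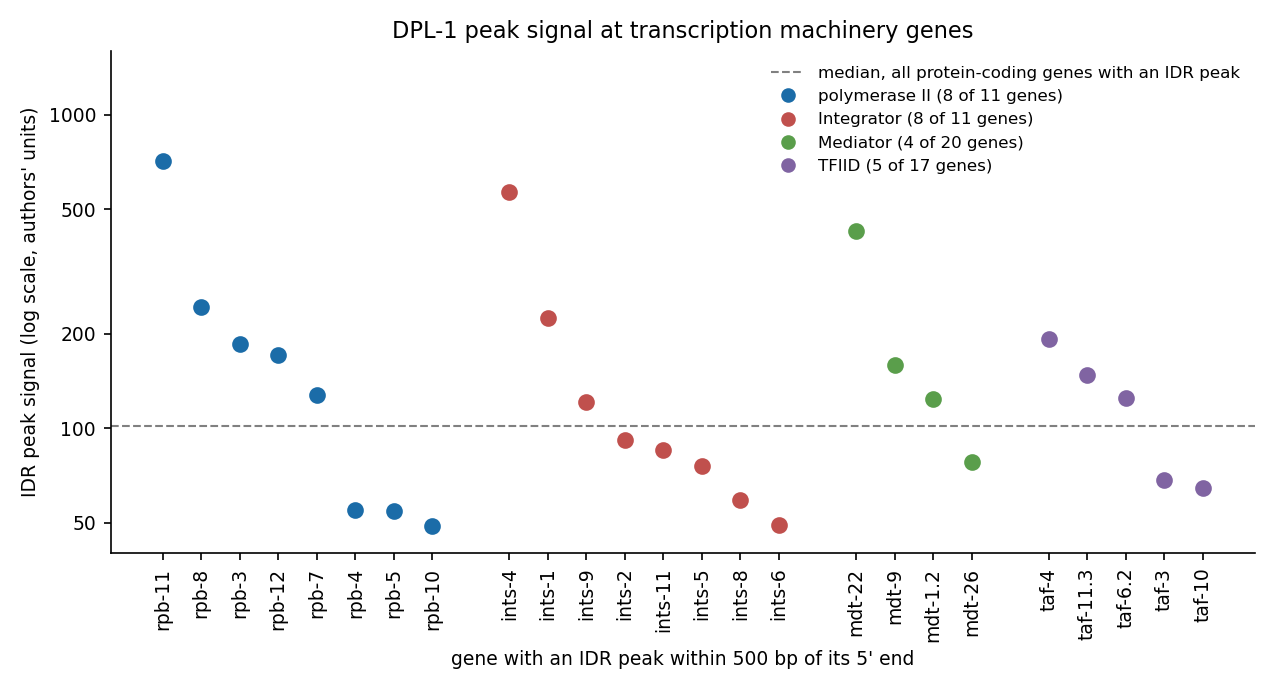
Signal of the IDR peak at each of the 25 genes with one (log scale, authors' units), ordered by strength within each complex. The dashed line is the median of all protein-coding genes with an IDR peak, 101.6, and rpb-11 (710.0), ints-4 (567.7) and mdt-22 (425.5) lie highest.

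Among the polymerase II genes, both subunits of the assembly platform had a peak, RPB-3 and RPB-11, which pair to start the building of the enzyme. The strongest of all 59 genes was rpb-11 (WBGene00012187, chromosome II, 14060085 to 14060624, plus strand). Its peak spanned 14059828 to 14060124 with a signal of 710.0, rank 37 of the IDR list, and the summit lay 124 bp upstream of the 5' end in sequence with no annotated gene. Its ranks were 35, 42 and 37 in replicates 1, 2 and 3, with signals of 173.9, 384.8 and 146.5 on the separate scales of those lists. The replicates therefore placed it within a few ranks of each other, and no other gene's 5' end was in reach. The window with 2 CHR matches printed for rpb-11 is centred on this summit.

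The rpb-3 peak (WBGene00007971, chromosome I, 8728764 to 8730054, plus strand) spanned 8728528 to 8728719 with a signal of 185.9. It ranked 1134, 340 and 1050 in replicates 1, 2 and 3, with signals of 25.36, 135.2 and 26.18. Its summit lay 149 bp upstream of rpb-3 and 128 bp upstream of pas-4, a proteasome subunit gene on the opposite strand, and fell in an exon of the noncoding gene C36B1.16. Which of these genes the binding serves cannot be told apart from the position.

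Of the 5 subunits that polymerase II shares with polymerases I and III, 4 had a peak at their gene. The peak of rpb-8 (WBGene00017830, chromosome III, 4917243 to 4918008, minus strand) spanned 4918039 to 4918257 with a signal of 244.1. It lay 143 bp upstream, with no other 5' end in reach, and ranked 685, 184 and 824 in replicates 1, 2 and 3, with signals of 33.82, 180.6 and 30.03. Replicate 2 placed it highest, as it did rpb-3. The peak of rpb-12 (WBGene00009078, chromosome IV, 9146334 to 9146869, minus strand) spanned 9147064 to 9147244 with a signal of 171.8. It lay almost midway between rpb-12, 292 bp away, and aly-2, a gene for an mRNA export factor of the ALY family, 307 bp away on the other strand. Its ranks were 2229, 524 and 353 and its signals 16.45, 107.2 and 46.16, so that replicate 1 put it far lower than the others.

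The other shared subunits had weak peaks. At rpb-5 (WBGene00019246, chromosome I, 6850409 to 6851253, plus strand) the peak spanned 6849853 to 6850156 with a signal of 54.58, and at 404 bp upstream its summit was the farthest inside the window. It ranked 2460 and 2909 in replicates 1 and 2, with signals of 15.5 and 32.86, and was not listed in replicate 3. The weakest of the 25 was that of rpb-10 (WBGene00021347, chromosome I, 2064293 to 2064686, plus strand), which spanned 2063899 to 2064202 with a signal of 48.64, where the lowest signal in the IDR list is 45.72. It lay 242 bp upstream of rpb-10 but 53 bp upstream of Y37E3.1 on the opposite strand. It was absent from the list of replicate 1 and ranked 2416 and 9064 in replicates 2 and 3, with signals of 38.51 and 8.024. It was thus among the 3295 strongest of 1 replicate only. The fifth shared subunit gene, rpb-6, had no IDR peak, and a relaxed pooled summit of rank 4799.

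Both genes of the stalk, the pair of subunits that reaches out from the enzyme near the RNA exit, had a peak. That of rpb-7 (signal 127.5) had its summit 7 bp inside the gene, in its coding exon, and 4 bp upstream of Y54E10BR.2, whose 5' end lies 3 bp from that of rpb-7 on the other strand. It ranked 406, 1916 and 588 in replicates 1, 2 and 3, so that here, unlike at rpb-8, replicate 2 placed the peak lowest. The rpb-4 peak (signal 54.80) lay 138 bp upstream of rpb-4 and 191 bp upstream of mtch-1, a gene for a mitochondrial carrier homologue, and ranked 3852, 3202 and 1734. No IDR peak lay at rpb-2, the gene of the subunit that forms the catalytic cleft with AMA-1, or at rpb-9, a small subunit linked in yeast to the fidelity of transcription. At rpb-2 no list held a summit within the window, and at rpb-9 replicate 1 alone placed a summit among its strongest, at rank 1430.

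In the Integrator complex, the cleavage module and the phosphatase module had a peak at every gene. The cleavage module consists of INTS-11, the endonuclease, its partner INTS-9, and the scaffold INTS-4. The ints-4 peak (WBGene00012234, chromosome I, 13663352 to 13674997, plus strand) spanned 13663227 to 13663551 with a signal of 567.7, rank 55. Its summit lay 62 bp downstream of the annotated 5' end, in the 5' UTR, and it ranked 51, 63 and 59 in replicates 1, 2 and 3, with signals of 147.9, 313.8 and 112.1. As at rpb-11, the replicates placed it alike and no other gene shared it.

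The other 2 cleavage genes had peaks of middling strength. That of ints-9 (WBGene00017608, chromosome V, 7575802 to 7581532, plus strand) spanned 7575694 to 7575810 with a signal of 121.3. It ranked 549, 1717 and 1087 in replicates 1, 2 and 3, with signals of 38.42, 49.97 and 25.63. The summit lay between ints-9, 60 bp away, and snu-66, a gene for a spliceosome protein, 72 bp away on the opposite strand. The ints-11 peak had a signal of 85.58 and lay 15 bp upstream of ints-11 and 388 bp upstream of the ribosomal protein gene rpl-10, and its ranks were 1307, 1718 and 3495.

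Among the backbone subunits, ints-1 and ints-2 had a peak and ints-7 had none. The ints-1 peak (WBGene00015499, chromosome I, 6011977 to 6022666, plus strand) spanned 6011823 to 6012033 with a signal of 225.2, 48 bp upstream. It ranked 669, 233 and 1036 in replicates 1, 2 and 3, with signals of 34.34, 162.0 and 26.43, and again stood highest in replicate 2. The 5' end of rnf-1 lay 343 bp from that summit. At ints-2 (WBGene00013877, chromosome V, 14185686 to 14192161, plus strand) the peak spanned 14185528 to 14185831 with a signal of 91.46, 6 bp upstream of ints-2 and 68 bp upstream of trm-1, a tRNA methyltransferase gene on the other strand. It ranked 3192, 2023 and 1370, with signals of 13.33, 44.34 and 22.25.

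The phosphatase module, whose subunits hold protein phosphatase 2A to the complex in other animals, had weak peaks throughout. Signals were 75.78 at ints-5, 59.02 at ints-8 and 49.16 at ints-6. The ints-6 peak (WBGene00000994, chromosome IV, 8691745 to 8696564, plus strand) spanned 8691597 to 8691900, with the summit 4 bp downstream of the 5' end and 236 bp upstream of the sulfotransferase gene hst-1. It ranked 2288, 3440 and 12299 in replicates 1, 2 and 3, with signals of 16.18, 28.67 and 6.836. In replicate 3, ints-5 ranked 4727 and ints-8 was not listed. All 3 genes of the module and ints-11 were thus missing from the strongest 3295 peaks of replicate 3, which is where the low Integrator count of that replicate came from. Neither ints-3 nor ints-13 had an IDR peak.

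Of the 20 Mediator genes of this prefix, the 4 with a peak were not confined to 1 module. They were mdt-22 in the head, which contacts the polymerase, mdt-9 and mdt-1.2 in the middle, and mdt-26, whose human homologue links Mediator to elongation factors. The kinase module genes cdk-8 and cic-1 carry other names and are given with the related genes. None of the 3 tail genes, mdt-15, mdt-27 and mdt-29, had one. MDT-15 is known in worms for regulating lipid metabolism genes. The 6 other head genes (mdt-6, mdt-8, mdt-11, mdt-17, mdt-18 and mdt-20), the 5 other middle genes (mdt-4, mdt-10, mdt-19, mdt-21 and mdt-31), mdt-28 and mdt-30 had none either. The mdt-22 peak (WBGene00007022, chromosome II, 10301216 to 10301888, plus strand) spanned 10301027 to 10301286 with a signal of 425.5, rank 98. Its summit lay 60 bp upstream of mdt-22, within an intron of clpp-1, the gene of a mitochondrial protease. It ranked 242, 82 and 80 in replicates 1, 2 and 3, with signals of 61.05, 266.5 and 96.02, and was among the strongest peaks of each. It is the strongest of the 3 peaks with an E2F-like match.

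The mdt-9 peak (WBGene00014938, chromosome IV, 13386380 to 13387361, plus strand) spanned 13386180 to 13386334 with a signal of 158.8, 122 bp upstream, and ranked 653, 542 and 1781 in replicates 1, 2 and 3 with signals of 34.70, 104.7 and 19.06. It had other 5' ends on both sides. The summit lay 167 bp upstream of Y62E10A.20 on the opposite strand and 66 bp upstream of Y62E10A.23, which overlaps mdt-9 on the same strand. The mdt-1.2 peak (WBGene00007011, chromosome X, 17151522 to 17154647, plus strand) spanned 17151305 to 17151452 with a signal of 123.8, 150 bp upstream with no other gene in reach. It ranked 1474, 815 and 1560, with signals of 21.44, 81.70 and 20.65.

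The weakest Mediator peak was at mdt-26 (WBGene00016115, chromosome II, 5661181 to 5665243, plus strand). It spanned 5661170 to 5661282 with a signal of 77.85, and its summit lay 41 bp downstream of the 5' end in a coding exon, 436 bp from ift-43, an intraflagellar transport gene. No summit of replicate 1 lay within 100 bp of it. It ranked 2153 in replicate 2 and 848 in replicate 3, with signals of 42.43 and 29.57. Replicate 1 did hold a summit of its strongest 3295 peaks within 500 bp of the mdt-26 5' end. The count of 5 Mediator genes for that replicate includes it. With summits matched within 100 bp, mdt-26 is the exception among the 4, since the others were in the strongest 3295 of all 3 replicates.

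Mediator also had the genes just below and just outside the limits used. At mdt-28 the pooled summit ranked 3531 with a signal of 43.09, the nearest below the IDR list of any of the 59 genes, and it ranked 2426, 11386 and 3701 in replicates 1, 2 and 3. The nearest IDR summit to mdt-19 lay 775 bp upstream with a signal of 293.3, that to mdt-6 920 bp upstream with a signal of 293.8, and that to mdt-27 952 bp downstream with a signal of 54.94. Outside Mediator, taf-12 was the other gene with an IDR summit between 500 and 1000 bp from its 5' end, at 932 bp upstream with a signal of 155.9. These values describe what lies beyond the limit, and none was counted.

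In TFIID, all 5 genes with a peak encode TAFs with a histone fold, the fold by which these proteins pair with each other. Most of the 17 TFIID genes, 12, are of this class, and 7 of those had no peak (taf-6.1, taf-8, taf-9, taf-11.1, taf-11.2, taf-12 and taf-13). The strongest was taf-4 (WBGene00006385, chromosome I, 382826 to 388564, plus strand), whose product pairs with TAF-12. Its peak spanned 382393 to 382625 with a signal of 192.5, 311 bp upstream with no other gene in reach. It ranked 271, 509 and 941 in replicates 1, 2 and 3, with signals of 57.57, 108.7 and 27.97.

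Gene copies within TFIID differed. Of the 3 taf-11 genes, taf-11.3 (WBGene00006395, chromosome III, 10503961 to 10505250, minus strand) had a peak, from 10505293 to 10505454 with a signal of 147.8, and taf-11.1 and taf-11.2 had none. The summit lay 131 bp upstream of taf-11.3 and 99 bp upstream of urm-1, a gene for a ubiquitin-related modifier, and ranked 1121, 634 and 1361, with signals of 25.49, 96.04 and 22.34. Of the 2 taf-6 genes, taf-6.2 (WBGene00021363, chromosome IV, 3687307 to 3694733, minus strand) had a peak, from 3694752 to 3694924 with a signal of 124.7, and taf-6.1 had none. That summit lay 117 bp upstream of taf-6.2 and 85 bp upstream of Y37E11AL.3, and ranked 916, 1189 and 1483, with signals of 28.43, 64.34 and 21.16. In both cases the neighbour's 5' end was the nearer, so the peak need not belong to the TAF gene.

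The last TFIID peaks were weak and uneven. The peak of taf-3 (WBGene00006384, chromosome X, 16332435 to 16346028, plus strand) spanned 16331965 to 16332268 with a signal of 68.33, 318 bp upstream. It was not listed in replicate 1, ranked 1879 in replicate 2 and 11362 in replicate 3, with signals of 46.69 and 7.142. The peak of taf-10 (WBGene00006392, chromosome V, 4687103 to 4687899, plus strand) spanned 4686746 to 4687049 with a signal of 64.51, 205 bp upstream, and ranked 6267, 2637 and 1426, with signals of 9.037, 35.95 and 21.70. TAF-1, the largest subunit, TAF-2, TAF-5 and both TAF-7 copies had no IDR peak at their genes, and at taf-2 and taf-7.1 no list held a summit within the window.

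Of the 25 IDR peaks, 15 were among the 3295 strongest of all 3 replicates, 7 of 2 replicates and 3 of 1 replicate, those of rpb-10, ints-6 and taf-3. Of all protein-coding genes with an IDR peak, 50.9% had it in the strongest peaks of all 3 replicates. By complex the count was 5 of 8 for polymerase II, 4 of 8 for Integrator, 3 of 4 for Mediator and 3 of 5 for TFIID. Replicate 2 held 24 of the 25 in its strongest peaks, replicate 1 held 20 and replicate 3 held 18. Across the genes listed in both, Spearman's rho of the signal was 0.776 between replicates 1 and 2 (n = 22 genes), 0.684 between 1 and 3 (n = 20) and 0.692 between 2 and 3 (n = 23). These describe genes of 1 set of 3 lists, which also went into the IDR list.

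**Figure D3:**
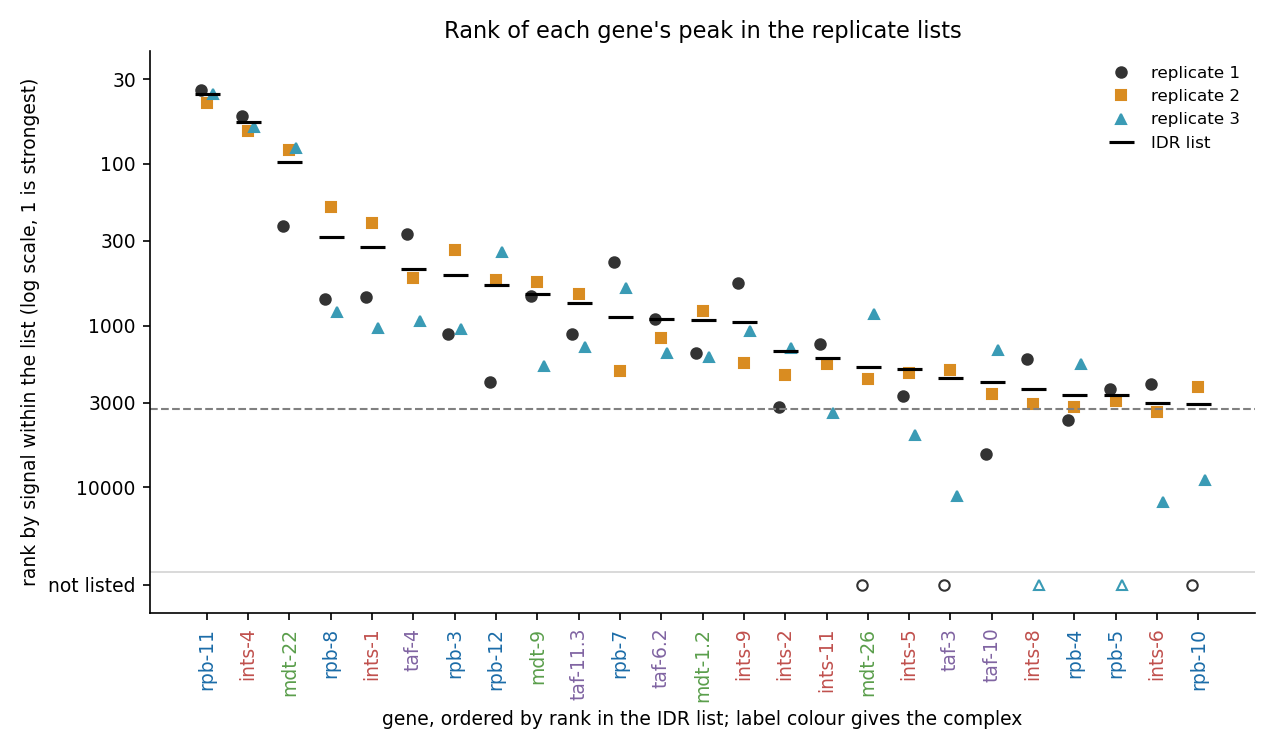
Rank of the peak at each of the 25 genes in the list of each replicate and in the IDR list (log scale, 1 is strongest, strongest at the left). Open symbols mark peaks not listed in a replicate, that is without a summit of it within 100 bp, and the dashed line marks rank 3295. The ranks of rpb-11 lie between 35 and 42, while from ints-11 rightwards each gene has at least 1 replicate below the line or not listed.

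Of the 34 genes without an IDR peak, 14 had no summit within 500 bp in the pooled relaxed list. In 7 of the 34 a summit was among the strongest 3295 of exactly 1 replicate: rpb-9, mdt-28 and taf-7.2 in replicate 1 (ranks 1430, 2426 and 3272), taf-11.1 and taf-8 in replicate 2 (2145 and 2560), and mdt-27 and taf-13 in replicate 3 (2856 and 2692). No gene without an IDR peak reached this in more than 1 replicate. In 5 genes, rpb-2, mdt-21, mdt-31, taf-2 and taf-7.1, no list held any summit within 500 bp.

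The median position of the summits also varied between the complexes, over few genes in each. Integrator summits were closest to the 5' end, with a median of 31.5 bp upstream and a range from 62 bp downstream to 116 bp upstream. TFIID summits had the largest median distance, 205 bp, and lay 117 to 318 bp upstream. The Integrator range thus ended at 116 bp, next to the 117 bp at which the TFIID range began. At the TFIID genes nearest to that limit, taf-6.2 and taf-11.3, a neighbour's 5' end was nearer to the summit. The median was 146 bp for polymerase II and 91 bp for Mediator. Over all protein-coding genes with an IDR peak the median was 176.0 bp upstream, and 90.5% of the summits lay upstream, against 21 of 25 here. The 4 summits downstream of the gene's own 5' end were those of rpb-7, ints-4, ints-6 and mdt-26. Many worm transcripts are trans-spliced, so that the annotated 5' end lies some way inside the transcribed region, which limits what these distances measure.

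Many of the peaks were in reach of another gene. Another protein-coding 5' end lay within 500 bp of the summit for 14 of the 25 genes, 5 in polymerase II, 5 in Integrator, 2 in Mediator and 2 in TFIID, where the share over all genes with an IDR peak was 46.3%. All but 1 of these neighbours were on the opposite strand. The gene's own 5' end was the nearest for 19 of 25, where the overall share was 76.7%, and for 8 of 8 Integrator genes. The 6 genes whose neighbour was nearer were rpb-3, rpb-7, rpb-10, mdt-9, taf-11.3 and taf-6.2. The summit fell in no annotated gene for 19 of 25, against 76.8% of IDR summits at 5' ends.

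**Figure D4:**
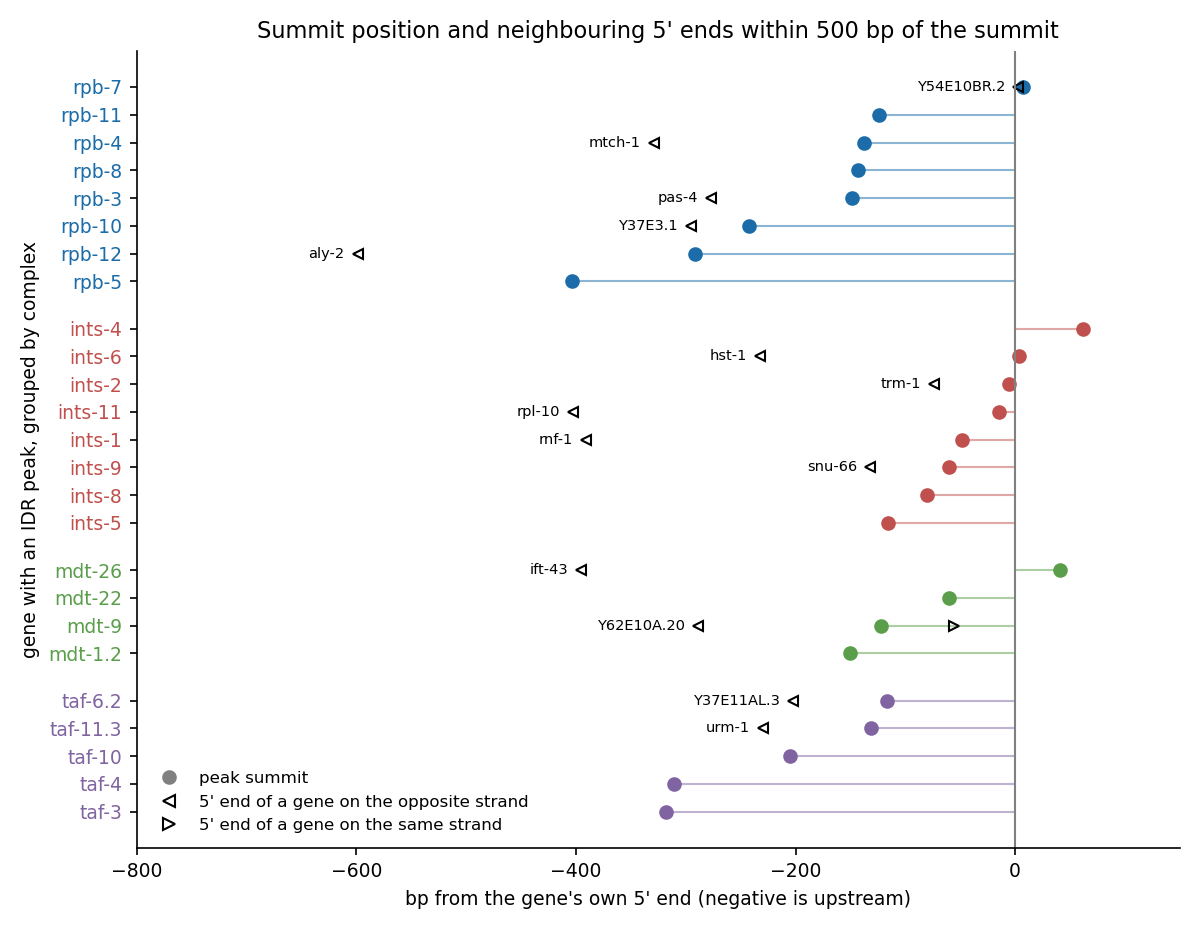
Position of each IDR summit relative to the gene's own 5' end (bp, negative is upstream, filled circles), with the 5' ends of other protein-coding genes within 500 bp of the summit as open triangles pointing in their direction of transcription. Integrator summits lie from 62 bp downstream to 116 bp upstream, TFIID summits from 117 to 318 bp upstream, and the triangle without a label is Y62E10A.23.

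Mediator genes had the largest share inside operon-like runs, taken here as genes whose same-strand neighbour ends within 500 bp upstream or overlaps their 5' end. This was so for 13 of 20 Mediator genes (65.0%), 4 of 11 polymerase II genes, 3 of 11 Integrator genes and 4 of 17 TFIID genes, and for 20.2% of all protein-coding genes. Outside such runs 21 of 35 genes (60.0%) had a peak, where 12.4% of all genes outside runs had one. Inside runs 4 of 24 (16.7%) had one, where 9.23% of all genes inside runs had one. Those 4 were rpb-8, rpb-5, ints-8 and mdt-9, the only Mediator gene among them, which was counted because Y62E10A.23 overlaps its start. Outside runs the counts were 6 of 7 for polymerase II, 7 of 8 for Integrator, 3 of 7 for Mediator and 5 of 13 for TFIID. Outside runs, Mediator (42.9%) and TFIID (38.5%) thus lay close together, and both below polymerase II (85.7%) and Integrator (87.5%).

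For genes inside a run, a peak at the first gene of the run was looked for as well. Of the 20 that had no peak of their own, 10 had an IDR peak at the first gene, where 24.4% of all such genes did. They were 7 of 12 in Mediator, 2 of 2 in Integrator, 1 of 2 in polymerase II and 0 of 4 in TFIID. The strongest of these peaks was at wip-1, a gene for a WASP-interacting protein upstream of mdt-11, with a signal of 621.4, rank 47 in the IDR list. It was followed by Y57E12AL.6 upstream of mdt-6 (293.8), F28F8.7 at the head of the run with mdt-28 (211.0) and Y62F5A.12 upstream of mdt-8 (187.3). The other 3 Mediator cases were weaker: prmt-1, an arginine methyltransferase gene, upstream of mdt-17 (70.99), pdr-1, the worm parkin gene, upstream of mdt-29 (70.05), and cec-3, a chromodomain gene, at the head of the run with mdt-10 (66.90).

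In Integrator, both genes without a peak that lay in runs had one at the first gene. The chromosome maintenance gene smc-6 stood before ints-7 with a signal of 86.16, and fnta-1, a farnesyltransferase subunit gene, stood before ints-13 with 58.35. For polymerase II, Y97E10AR.6 stood before rpb-9 with 52.25. The other 10 genes without a peak had none at the first gene either: rpb-2, mdt-4, mdt-15, mdt-27, mdt-30, mdt-31, taf-2, taf-6.1, taf-9 and taf-13. For rpb-2 and taf-13 this was a near miss. The nearest IDR summit lay 4499 bp upstream of rpb-2 (signal 56.11), whose first gene mrps-18C began 3989 bp away. It lay 2182 bp upstream of taf-13 (62.73), whose first gene ccm-3 began 1663 bp away. Both summits were thus just beyond 500 bp from the first gene's 5' end and were not counted. Whether the genes of a run are transcribed from 1 promoter was not tested, because runs were defined by spacing alone. The spacing changed the counts. At 200 bp, 19 of the 59 genes were in a run and 1 of them (5.26%) had a peak, close to the 5.76% of all genes in such runs, and at 1000 bp 5 of 28 (17.9%) had one, against 8.98%. Outside runs the share was 60.0% at 200 bp and 64.5% at 1000 bp, against 12.6% and 13.0% of all genes. The Mediator genes in a run were 12 at 200 bp and 14 at 1000 bp, and the TFIID genes 3 and 7.

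**Figure D5:**
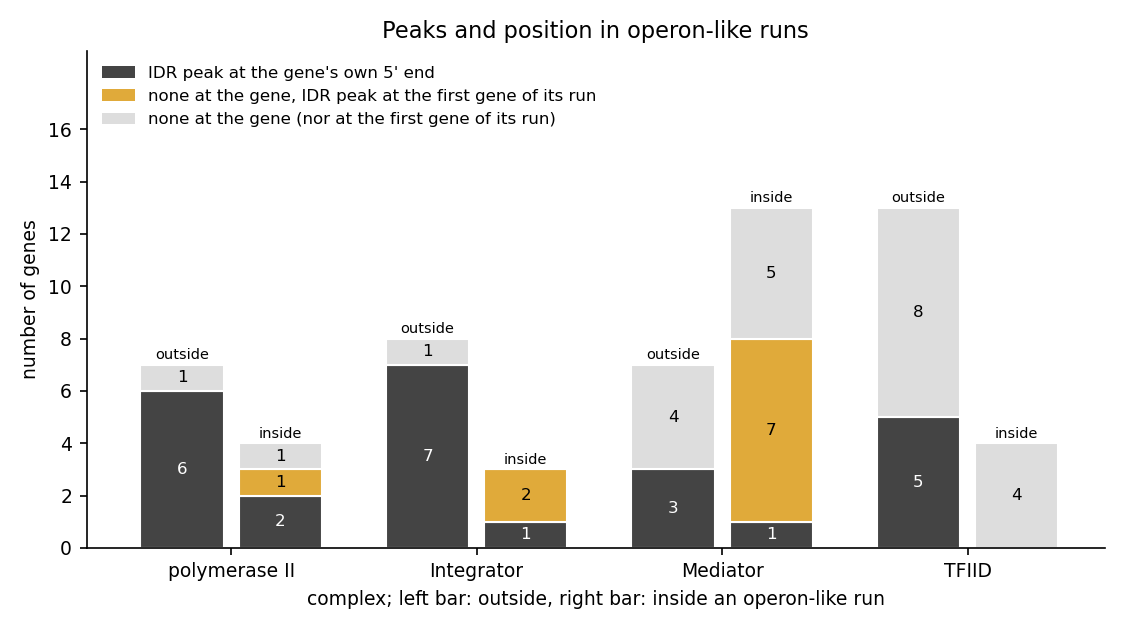
Number of genes of each complex outside (left bars) and inside (right bars) operon-like runs, divided by whether an IDR peak lay at the gene's own 5' end, at the first gene of its run only, or at neither. In Mediator 1 of 13 genes inside runs had its own peak and 7 had one at the first gene.

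By chromosome, 8 of 14 genes on chromosome I had a peak, where the share of all protein-coding genes there was 18.5%. The count was 5 of 13 on chromosome II (11.7% of all genes), 2 of 12 on III (19.5%), 4 of 7 on IV (11.5%), 4 of 9 on V (6.91%) and 2 of 4 on X (6.04%). On chromosome III the count was near the share of all genes, and the genes without a peak there included 6 of Mediator: mdt-11, mdt-15, mdt-19, mdt-21, mdt-29 and mdt-30.

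Genes of the same or related machinery with other names were counted for comparison. In 4 lists of such genes, 16 of 44 (36.4%) had an IDR peak, against the 11.8% of all protein-coding genes. The 44 include 4 genes of polymerase III, which does not make messenger RNA. In the list of complex genes of other names, which also holds tlf-1, a relative of a TFIID subunit gene, it was 5 of 11 (45.5%). No peak lay at ama-1, the gene of the largest polymerase II subunit, at tbp-1, the TATA-binding protein gene, or at dpy-22, let-19, lin-25 and let-49 of Mediator. Peaks lay at sop-3, the Mediator subunit gene (226.0), cic-1, the cyclin gene of its kinase module (124.5), and sur-2 (82.05). A peak of signal 57.09 was shared by cdk-8, the kinase gene of that module, and tlf-1, a gene for a TATA-binding protein relative. Its summit lay 4 bp upstream of cdk-8 and 489 bp upstream of tlf-1, and it was listed in replicate 1 only (rank 1988). Both genes count among the 5. Mediator genes of other names were thus divided between those with and without a peak. The low Mediator share given above is that of the mdt- genes alone.

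Of the general transcription factor genes 5 of 16 (31.2%) had a peak, at cdk-7, the kinase gene of TFIIH (232.9), pqn-51 (149.3), ttb-1, the TFIIB gene (110.6), xpb-1, a TFIIH helicase gene (86.36), and gtf-2H3 (48.37). Of 13 genes for elongation factors and the PAF complex, which travels with the polymerase, 6 (46.2%) had one. The strongest was at pafo-1, with a signal of 487.2 and rank 76, between those of ints-4 and mdt-22, and ranks of 61, 86 and 111 in replicates 1, 2 and 3. The others were cdc-73 (165.3), emb-5 (155.9), cdk-9 (77.23), ccnk-1 (61.17) and cdk-12 (58.22). None of the 4 genes named for polymerase III, rpc-1, rpc-2, rpc-11 and rpc-25, had an IDR peak. With 11.8% of all protein-coding genes having one, so few genes cannot show a difference. Of these genes rpc-2 and rpc-25 also lay inside operon-like runs.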

How the data were processed

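DPL-1 ChIP-seq peak lists of 3 biological replicates were used as the authors deposited them, on the build ce11: a relaxed list per replicate, 1 from the pooled replicates and the optimal IDR list. Per the labels these were derived from the alignments of the samples and 1 further file. For the aligner and the peak caller, names and versions were not given in the sources used here. Peak signal as deposited by the authors was used to rank and describe peaks within a list, since its scale differs between lists. The −log10 q-values deposited beside it were not used. The relaxed lists held 28383, 30000 and 30000 peaks for replicates 1, 2 and 3 and 30000 for the pooled reads. All 3295 IDR peaks were the strongest 3295 of the pooled list with the same signals, so these are not 2 separate lines of evidence. The ce10 lists were not used. Read numbers are not in these lists, so the depth is unknown and no interval that needs it is given.

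Genes and their 5' ends came from the Ensembl release 115 annotation of WBcel235, the same assembly as ce11, and sequences from the RefSeq genome of that assembly. Coordinates are 1-based. The strongest summit (column 2 plus column 10) within 500 bp of the start of the gene record was taken for each gene. An IDR peak was followed into a replicate by the strongest summit of that list within 100 bp of its own, and for a gene without one by the strongest within 500 bp of the 5' end. A replicate's own strongest 3295 peaks served for counts per replicate. Reads of near-identical gene copies may be shared between them, and the treatment of such reads is unknown. The replicates are of 1 group, so no test was made and all results are counts, medians and ranks beside the same over all protein-coding genes. The members and gene lists were chosen with earlier results of these data known. Full values are given, by rule, for the 4 strongest genes and the weakest with an IDR peak in each complex and for the gene farthest inside the 500 bp limit. For genes just outside that limit, the distance and signal of the nearest IDR summit are given. The functions were tested on simulated data. Python 3.11.15, pandas 2.3.3, numpy 2.4.6, scipy 1.17.1 and matplotlib 3.10.9 were used. Other windows, list lengths, replicate sets, gene ends, run spacings and motif widths were tried as alternatives.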

Additional observations from a re-analysis of the deposited data

How the results depend on the processing

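The counts of genes with a peak were recomputed under other choices, and no alternative turned the order of polymerase II and Integrator over Mediator. The alternatives without 1 replicate keep IDR peaks that are among the strongest 3295 of both remaining replicates, so they add a demand for replicate support, and the count to read them against is that for all 3 replicates. Of 59 genes, 15 had such support in all 3 replicates and 15 to 19 without 1 replicate, and 16 had a peak in the stronger 50% of the IDR list, against 25 with any IDR peak. For polymerase II it was 5 in all 3 replicates, 5 to 6 without 1 replicate and 5 in the stronger 50%, and 5 when only the nearest gene was counted, against 8 of 11. For Integrator it was 4 in all 3 replicates, 4 to 7 without 1 replicate, the highest without replicate 3, 5 in the stronger 50% and 4 in replicate 3 alone, against 8 of 11. For Mediator it was 3 in all 3 replicates, 3 to 4 without 1 replicate and 7 within 1000 bp, against 4 of 20. For TFIID it was 3 in all 3 replicates, 3 to 4 without 1 replicate, 3 in the stronger 50%, 3 within 250 bp and 3 for the nearest gene only, against 5 of 17. Sets that hold fewer peaks by construction give fewer genes: over all protein-coding genes the share was 7.33% in the stronger 50%, 5.99% in all 3 replicates, and 7.58%, 6.28% and 7.32% without replicates 1, 2 and 3. It was 7.71% within 250 bp, 14.7% within 1000 bp and 9.05% for the nearest gene. Among genes with any pooled relaxed summit, 25 of 45 (55.6%) had an IDR peak, against 35.7% of all such protein-coding genes, with 4 of 14 (28.6%) for Mediator. The strongest 3295 pooled peaks gave the IDR counts because they are the same peaks. The E2F-like motif lay within 25 bp of 1 summit and within 100 bp of 4, against 3 within 50 bp. No paired analysis was possible because all 3 samples belong to 1 group. Unknown depth, and the lack of an input or untagged sample here, limit what a missing peak or a weak one can show.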
